A study of Mus musculus with 3 samples.

Results

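The peaks described here are the CAP-D3 peaks beside the centromeric ends of the mouse autosomes. They were chosen by position: every autosomal peak that starts below 8 Mb in the deposited lists was taken, which covers the first 5 Mb of assembled sequence, because the assembly places no sequence before about 3 Mb. The Rb+/+ list holds 298 such peaks of 8195, and the RbΔL/ΔL list holds 254 of 6437, so 552 of 14632 peaks over both lists. CAP-D3 was immunoprecipitated from proliferating primary mouse embryonic fibroblasts at passage 4, with 1 ChIP library of Rb+/+ and 1 of RbΔL/ΔL cells, homozygous for the mutant allele. An input DNA sample belongs to the study, and its values were not analysed here. Rb+/+ cells carry the normal retinoblastoma gene, and the protein made from the ΔL allele has a mutated cleft for partners with an LXCXE motif. The labels do not say how many embryos each culture came from, and a peak list holds no marker against which the cell type could be checked.

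CAP-D3 belongs to condensin II, a ring-shaped complex that compacts chromosomes, is nuclear throughout the cell cycle, and takes part in the structure of centromeres and their flanks. The retinoblastoma protein binds condensin II through that cleft and has been studied with E2F1 at the satellite repeats that surround mouse centromeres. Mouse chromosomes have the centromere at one end, the low-coordinate end in the assembly. The satellite arrays themselves are largely missing from the assembly, so the peaks described here lie in the sequence beside them. The comparison of genotypes asks where CAP-D3 was found next to the centromeres with and without an intact cleft.

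With 1 library per genotype there is no test of genotype, and the values describe these libraries. How deeply they were sequenced is unknown. Intervals are exact 95% intervals, or Newcombe intervals for a difference of shares, and cover counting error only. Positions are mm9, with starts counted from 1. Sites are named by position, since neither sequence nor annotation of mm9 was used here. Their place in exons, introns or repeats was not determined. Each peak has a score given by the authors' peak caller, which was used only to rank and filter peaks within a list.

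The number of peaks beside the centromeric ends was close to that of the rest of the autosomes over all 19 of them. This average included a very dense chromosome 19, and in Rb+/+ the other chromosomes together were sparser here than in their rest. In RbΔL/ΔL the interval lay below 1 only when chromosome 9 below 3.1 Mb was left out as well. The density was 3.14 peaks per Mb in Rb+/+ against 3.31 in the rest of the autosomes, a ratio of 0.948 (interval 0.842 to 1.06). In RbΔL/ΔL it was 2.67 against 2.60, a ratio of 1.03 (interval 0.904 to 1.17). Without chromosome 19 the Rb+/+ ratio was 0.748 (interval 0.651 to 0.855), below 1. The RbΔL/ΔL ratio without it was 0.884 (interval 0.765 to 1.02), which included 1. Without both chromosome 19 and chromosome 9 below 3.1 Mb, the Rb+/+ ratio was 0.718 (interval 0.624 to 0.823). The RbΔL/ΔL ratio was then 0.842 (interval 0.726 to 0.971), so both lay below 1. Of all autosomal peaks, 3.74% lay in this stretch in Rb+/+ (interval from 3.33 to 4.18%) and 4.04% in RbΔL/ΔL (interval 3.57 to 4.56%). The difference, Rb+/+ minus RbΔL/ΔL, was -0.306 percentage points (interval -0.955 to 0.330), which includes 0. At the 8 Mb limit, the last Rb+/+ peak inside started at 7962436 on chromosome 9 (score 51.54) and the first outside at 8008120 on chromosome 13 (score 64.24). In RbΔL/ΔL these were 7979237 on chromosome 10 (score 56.85) and 8021749 on chromosome 8 (score 58.89), and no peak crossed the limit in either list.

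Chromosome 19 held the most peaks in this stretch in both genotypes. It carried 76 Rb+/+ peaks (interval 59.9 to 95.1), 25.5% of all those described, and 48 RbΔL/ΔL peaks (interval 35.4 to 63.6), 18.9%. Per Mb this was 15.2 peaks in Rb+/+ against 3.73 in the rest of the chromosome, a ratio of 4.07 (interval 3.09 to 5.33). In RbΔL/ΔL it was 9.60 against 2.96, a ratio of 3.24 (interval 2.30 to 4.50). Chromosome 19 was the only autosome whose interval lay above 1, and it was so in both lists. Its density was highest in the middle of the stretch. From 5 to 6 Mb there were 26 Rb+/+ and 17 RbΔL/ΔL peaks, and from 3 to 4 Mb there were 11 and 2. Each of the 5 megabases held 10 to 26 Rb+/+ and 2 to 17 RbΔL/ΔL peaks. Each of the 54 later megabases of the chromosome held at most 11 peaks in either list, with a median of 3 in Rb+/+ and 2 in RbΔL/ΔL. The stretch held 27.6% of the chromosome's Rb+/+ peaks and 23.3% of its RbΔL/ΔL peaks.

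**Figure D1:**
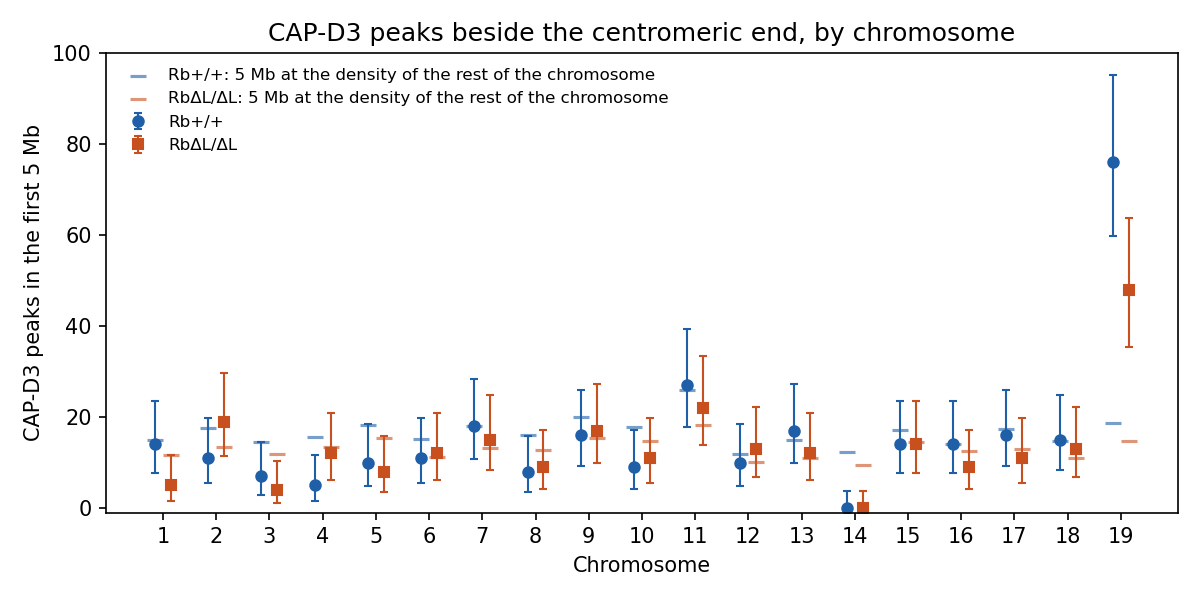
Number of CAP-D3 peaks in the first 5 Mb of assembled sequence (y axis) of each autosome (x axis), with circles for Rb+/+, squares for RbΔL/ΔL, and exact 95% Poisson intervals as error bars. Short horizontal marks give the number that 5 Mb would hold at the density of the rest of the same chromosome; chromosome 19, with 76 and 48 peaks, lies far above its marks, and chromosome 14 has none.

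The remaining chromosomes held between 4 and 27 peaks each, and chromosome 14 held none. On chromosome 14 the first Rb+/+ peak of the whole chromosome started at 8679282 and the first RbΔL/ΔL peak at 8655420. The exact interval of this count reaches up to 3.69 peaks, whereas 5 Mb would hold 12.2 Rb+/+ and 9.43 RbΔL/ΔL peaks at the density of the rest of the chromosome. Whether reads can be placed on its first megabases was not tested. Chromosome 11 came second, with 27 Rb+/+ peaks (interval 17.8 to 39.3) and 22 RbΔL/ΔL peaks (interval 13.8 to 33.3). Its ratios to the rest of that chromosome, 1.04 (interval 0.680 to 1.53) and 1.21 (interval 0.748 to 1.85), both included 1. In Rb+/+ the interval lay below 1 on 5 chromosomes, namely 3, 4, 8, 10 and 14, and in RbΔL/ΔL on chromosomes 3 and 14. It included 1 on the other 13 and 16 chromosomes. These intervals were not corrected for the number of chromosomes, and in Rb+/+ the upper limits on chromosomes 3, 8 and 10 were close to 1 (0.995, 0.987 and 0.963). Chromosome 3 had few in both lists, 7 and 4 peaks, with ratios of 0.479 (interval 0.192 to 0.995) and 0.334 (interval 0.0905 to 0.863).

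Between the genotypes, the counts per chromosome were correlated (Spearman's rho 0.66 over 19 chromosomes, a descriptive value). They differed on a few chromosomes with small counts and on chromosome 19. Rb+/+ had more peaks on 10 chromosomes, RbΔL/ΔL on 7, and 2 were equal. The Rb+/+ list is the longer one, with 298 peaks here against 254, and these counts were not scaled for that. Chromosome 1 held 14 Rb+/+ and 5 RbΔL/ΔL peaks. Chromosome 2 went the other way, with 11 and 19, and so did chromosome 4, with 5 and 12. As a share of the peaks described, chromosome 4 held 1.68% in Rb+/+ and 4.72% in RbΔL/ΔL, a difference of -3.05 percentage points (interval -6.53 to -0.0804). That was the single interval of 19 that excluded 0, and no correction was made for the 19 comparisons. Chromosome 19 had the largest difference, 6.61 points (interval -0.395 to 13.4), which included 0. None of the chromosome 4 peaks in this stretch overlapped a peak of the other list, and such small counts are not far from the 13.2% and 16.7% of all autosomal peaks that did. Its 5 Rb+/+ peaks had scores of 52.96 to 103.84, and its 12 RbΔL/ΔL peaks had scores of 52.15 to 126.88.

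**Figure D2:**
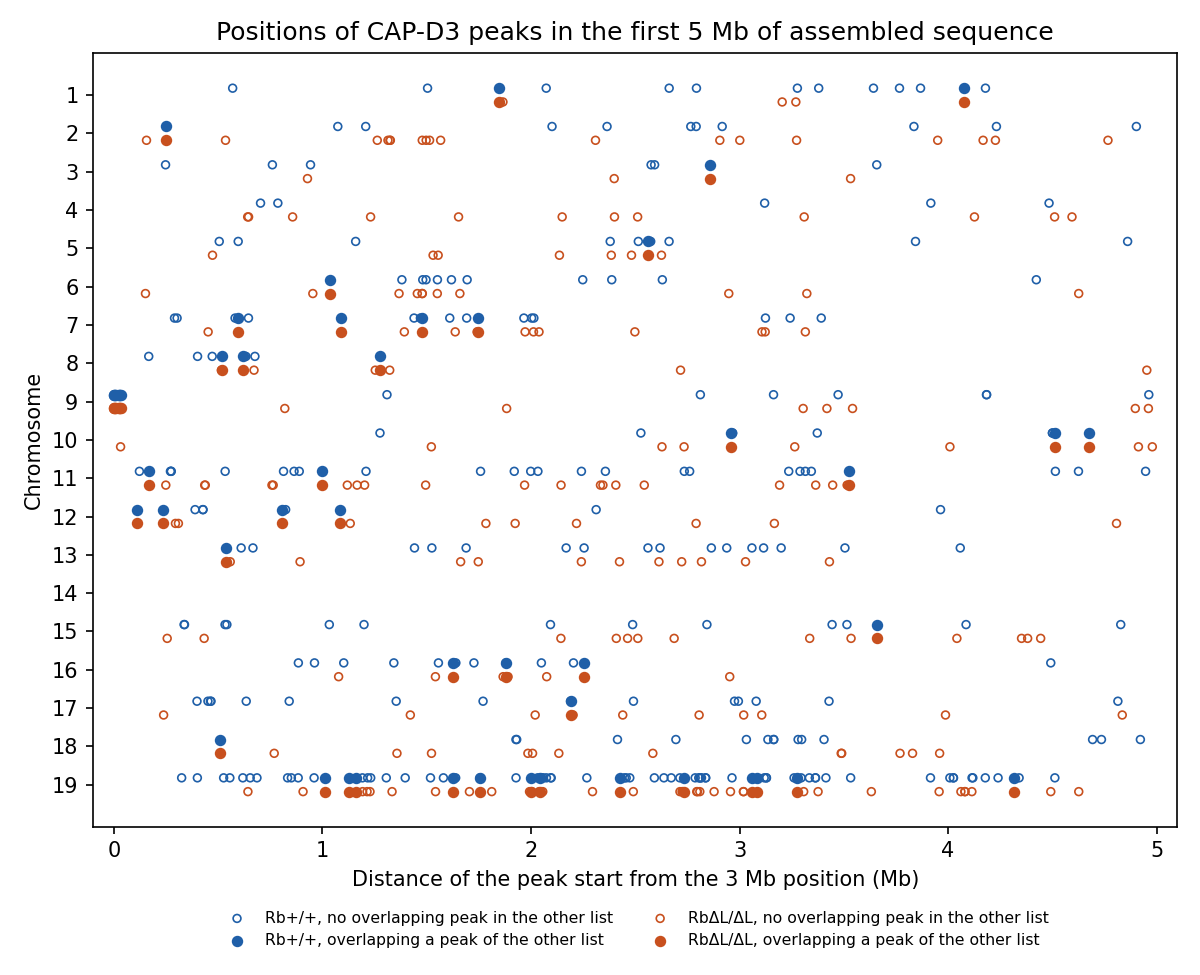
Position of every CAP-D3 peak described, as the distance in Mb from the 3 Mb position (x axis), on each autosome (y axis), with the Rb+/+ list above and the RbΔL/ΔL list below each chromosome number. Filled points overlap a peak of the other list and open points do not. In each list 51 peaks are filled, and chromosomes 19 and 9 hold the most of them, 13 and 8.

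Within the first 5 Mb, the counts per step of 1 Mb were higher in the first 3 steps of each list than in the last one, with no steady decline. In Rb+/+ the 5 steps held 74, 60, 76, 52 and 36 peaks, and in RbΔL/ΔL 50, 67, 65, 43 and 29. Without chromosome 19 and the first 0.1 Mb of chromosome 9, they were 54, 45, 50, 38 and 26 in Rb+/+ and 38, 54, 48, 34 and 22 in RbΔL/ΔL. Beyond the 8 Mb limit the counts did not keep falling. In the next 5 steps they were 60, 30, 38, 42 and 42 in Rb+/+ and 42, 43, 46, 39 and 24 in RbΔL/ΔL. These 5 Mb (8 to 13 Mb) held 212 Rb+/+ and 194 RbΔL/ΔL peaks in all. The first 5 Mb thus held 1.41 times as many in Rb+/+ (interval from 1.17 to 1.68) and 1.31 times as many in RbΔL/ΔL (interval 1.08 to 1.59). Without chromosome 19 and the first 0.1 Mb of chromosome 9, these ratios were 1.15 (interval 0.937 to 1.403) and 1.17 (interval 0.946 to 1.44), and both included 1.

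**Figure D3:**
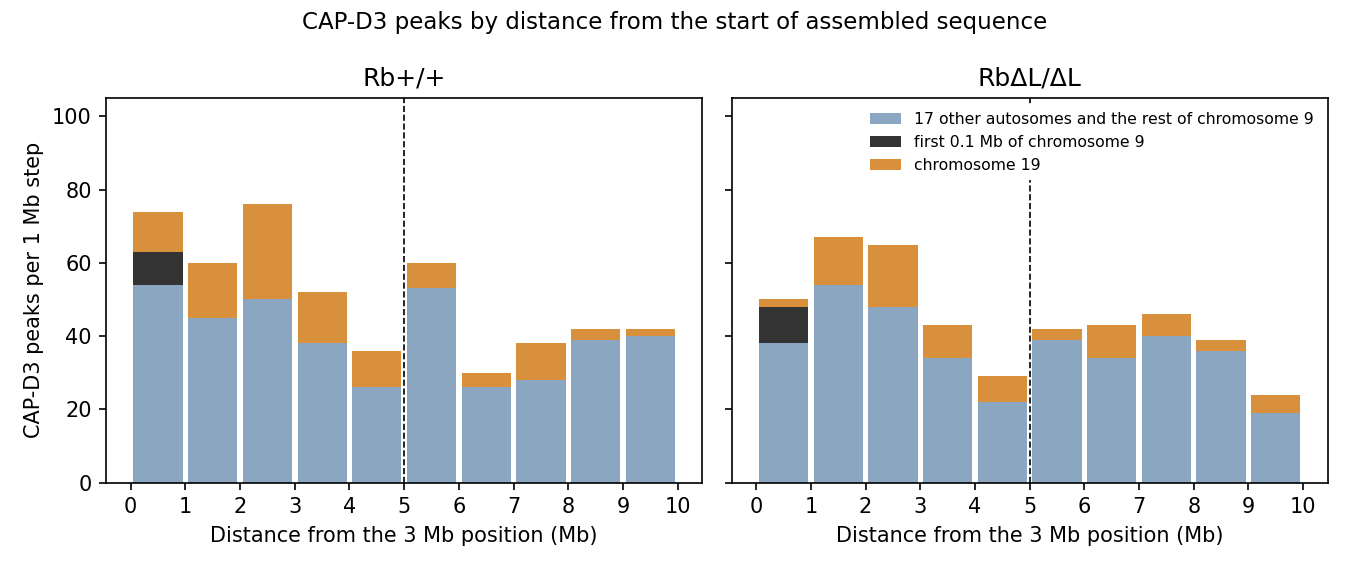
Number of CAP-D3 peaks (y axis) in steps of 1 Mb from the 3 Mb position (x axis) for Rb+/+ and RbΔL/ΔL, each bar divided into chromosome 19, the first 0.1 Mb of chromosome 9 and all other autosomal sequence. The dashed line marks the 8 Mb limit; the chromosome 19 part is largest between 2 and 3 Mb, with 26 and 17 peaks, and the chromosome 9 part, 9 and 10 peaks, falls in the first step.

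Few peaks lay near the edge of the assembled sequence. Within 100 kb of the 3 Mb position lay 9 Rb+/+ and 11 RbΔL/ΔL peaks, all of them on chromosome 9 except for 1 RbΔL/ΔL peak on chromosome 10 at 3032051 to 3032411 (score 77.54), whose nearest Rb+/+ peak was 1243 kb away. Leaving out chromosome 9, the peak nearest to the 3 Mb position lay 110 kb (chromosome 12) to 1276 kb (chromosome 10) from it over the 17 chromosomes with a peak in Rb+/+, with a median of 398 kb. In RbΔL/ΔL it lay 32.1 kb (chromosome 10) to 1848 kb (chromosome 1) away, with a median of 473 kb. On chromosomes 12, 13 and 18 the nearest peak was a shared one, the same site in both lists. On chromosome 12 it lay at 3109810 to 3110186 in Rb+/+ (score 159.92) and 3109834 to 3110254 in RbΔL/ΔL (score 212.03).

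The stretch at the very start of assembled chromosome 9 held the largest group of close-set peaks among those described. Its 9 Rb+/+ peaks covered 20.9% of 36.5 kb and its 10 RbΔL/ΔL peaks covered 25.1% of 36.5 kb, and 8 of each overlapped the other list. The next peak of the chromosome came 1.31 Mb from the 3 Mb position in Rb+/+ and 0.819 Mb in RbΔL/ΔL. The first peak, at 2999948 to 3001813 in Rb+/+ (score 186.01) and 2999945 to 3001814 in RbΔL/ΔL (score 140.33), began just before the 3 Mb position and was the widest described in both lists, at 1866 and 1870 bp. The highest-scoring one lay at 3023091 to 3024616 in Rb+/+ (score 609.38, rank 65 of its list) and at 3023098 to 3024816 in RbΔL/ΔL (score 748.61, rank 18).

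The other chromosome 9 sites repeated the same positions in both lists with a wide range of scores. Peaks starting at 3001979 and 3001978 had scores of 264.52 in Rb+/+ and 365.14 in RbΔL/ΔL, and those starting at 3006690 and 3006686 had scores of 144.99 and 187.77. The pair starting at 3011432 and 3011429 was weak in both, with scores of 57.59 and 54.12. The pair starting at 3025359 and 3025365 had scores of 196.45 and 219.51. Farther in, the pair starting at 3029395 and 3029692 had scores of 59.01 and 99.26, and the last pair, starting at 3035693 and 3035630, had 64.55 and 73.1. Peaks without an overlapping partner were the Rb+/+ peak at 3003406 to 3003650 (score 81.83), 386 bp from a RbΔL/ΔL peak, and the RbΔL/ΔL peaks at 3021996 to 3022770 (score 151.02) and 3032011 to 3032786 (score 75.32), 320 and 1633 bp from Rb+/+ peaks. The starts of both peaks were within 10 bp of each other in 6 of the 8 pairs, against 4 of the 43 other pairs beside centromeric ends and 60 of 980 pairs in the rest of the autosomes. Both edges were within 10 bp in 3 of these 8 pairs, none of the other 43, and 3 of the 980. Without values of the input library, enrichment by the antibody and a high background at this place cannot be told apart.

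**Figure D4:**
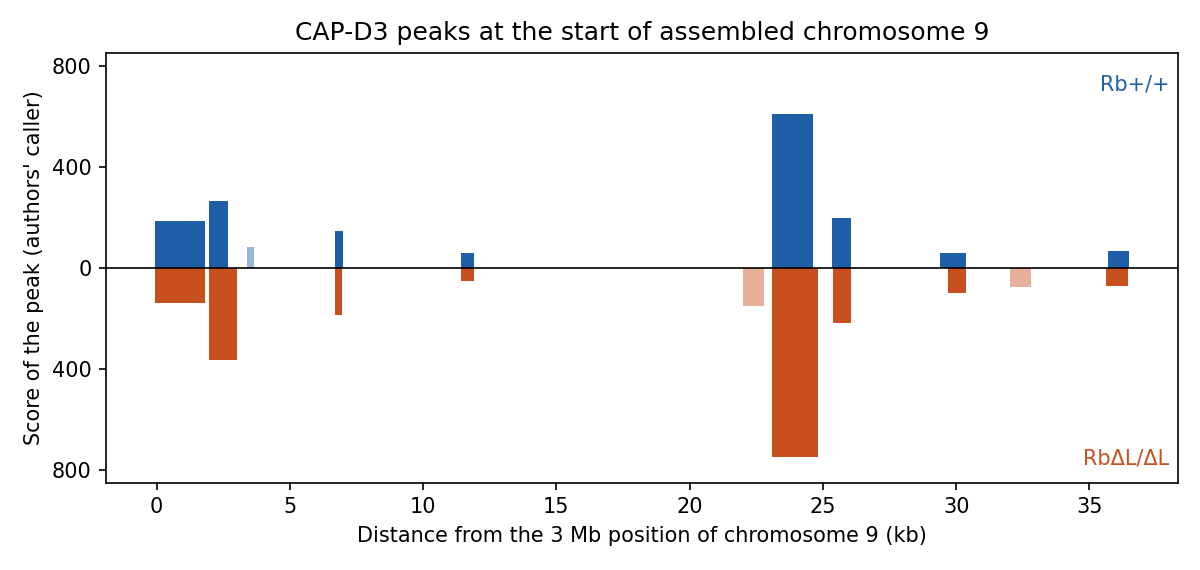
CAP-D3 peaks at the start of assembled chromosome 9, drawn to scale by distance in kb from the 3 Mb position (x axis), with the score given by the authors' caller as height (y axis), Rb+/+ upward and RbΔL/ΔL downward. Full colour marks peaks that overlap the other list and pale colour those that do not; 8 of 9 and 8 of 10 peaks stand at matching positions, the highest about 23 kb in.

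Sharing between the genotypes was slightly more frequent here than elsewhere, and the chromosome 9 group supplied much of that excess. In each list 51 peaks overlapped a peak of the other, in 51 one-to-one pairs on 17 chromosomes. This was 17.1% of the Rb+/+ peaks (interval 13.02 to 21.9%), beside 13.2% of all autosomal Rb+/+ peaks, and 20.1% of the RbΔL/ΔL peaks (interval 15.3 to 25.5%), beside 16.7% of all autosomal RbΔL/ΔL peaks. Against the rest of the autosomes the difference was 4.10 percentage points in Rb+/+ (interval from 0.172 to 8.84) and 3.48 in RbΔL/ΔL (interval -1.09 to 8.91). Without chromosome 9 below 3.1 Mb, 43 peaks were shared in each list, 14.9% and 17.6%. The differences were then 1.86 points (interval -1.86 to 6.49) and 1.02 points (interval -3.36 to 6.37), and both included 0. Counted as separate places over both lists, there were 501 sites, of which 51 were in both, 247 in Rb+/+ alone and 203 in RbΔL/ΔL alone.

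Shared sites were more frequent in the first 2 Mb than in the following 3 Mb. In Rb+/+, 33 of 134 peaks (24.6%) in the first 2 Mb and 18 of 164 (10.98%) in the next 3 Mb were shared, a difference of 13.7 percentage points (interval 4.99 to 22.5). In RbΔL/ΔL these were 33 of 117 (28.2%) and 18 of 137 (13.1%), a difference of 15.1 points (interval 5.13 to 24.98). Leaving out both chromosome 19 and the chromosome 9 group, the differences were 11.4 points in Rb+/+ (interval from 1.99 to 21.2) and 12.1 in RbΔL/ΔL (interval 1.95 to 22.5). The pairs are the same sites in both lists, so the lists do not support each other here. The dividing distance was chosen after the counts per step had been seen. Peaks with a score of at least 100 made up 21.6% and 13.4% of these parts in Rb+/+ and 23.9% and 15.3% in RbΔL/ΔL, and the intervals of those differences included 0. Among peaks scoring below 100, the Rb+/+ difference in sharing was 8.16 points (interval 1.30 to 16.1). Leaving out chromosome 19 and the chromosome 9 group, it was 4.68 points (interval -2.58 to 13.2), which included 0. The matching RbΔL/ΔL differences were 11.4 points (interval 3.27 to 20.7) and 8.74 points (interval 0.640 to 18.2), both above 0. Whether the scores account for the difference in sharing was not tested.

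Overlap followed the score of the peak, as in the rest of the autosomes. At scores from 200 upward, 19 of 20 in Rb+/+ (interval from 75.1 to 99.9%) and 17 of 17 in RbΔL/ΔL (interval 80.5 to 100%) had a partner. Between 100 and 200 this held for 13 of 31 (41.9%) and 15 of 32 (46.9%), beside 48.9% and 58.2% in the rest of the autosomes. Between 60 and 100 it held for 12 of 128 (9.38%) and 15 of 131 (11.5%), and below 60 for 7 of 119 (5.88%) and 4 of 74 (5.41%). In each of the 4 score bands the interval of the difference from the rest of the autosomes included 0, in both lists.

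**Figure D5:**
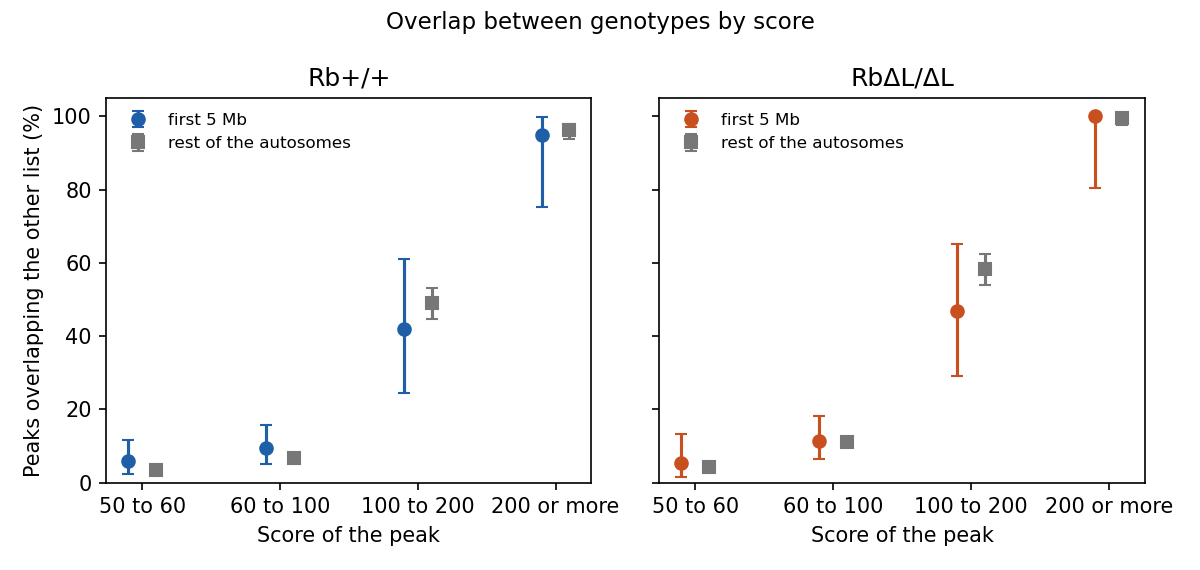
Share of CAP-D3 peaks that overlap a peak of the other list (y axis, percent) by score band (x axis), in Rb+/+ and RbΔL/ΔL, for peaks in the first 5 Mb (coloured circles) and in the rest of the autosomes (grey squares), with exact 95% binomial intervals. The share rises from 5.88% and 5.41% below a score of 60 to 19 of 20 and 17 of 17 peaks at 200 or more, and the circles and squares have overlapping intervals in every band.

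High-scoring peaks made up a larger share beside the centromeric ends than in the rest of the autosomes. A score of at least 100 was reached by 51 of 298 Rb+/+ peaks (17.1%, interval 13.02 to 21.9%), beside 12.8% of all autosomal Rb+/+ peaks, and by 49 of 254 RbΔL/ΔL peaks (19.3%, interval 14.6 to 24.7%), beside 13.2% of all autosomal RbΔL/ΔL peaks. The difference from the rest of the autosomes was 4.49 points in Rb+/+ (interval from 0.565 to 9.23) and 6.34 points in RbΔL/ΔL (interval 1.87 to 11.7). On chromosome 19 alone, this score was reached by 15 of 76 in Rb+/+ (19.7%) and 14 of 48 in RbΔL/ΔL (29.2%), and in the chromosome 9 group by 5 of 9 and 6 of 10. Leaving out chromosome 19 and the chromosome 9 group, 31 of 213 (14.6%) did in Rb+/+ and 29 of 196 (14.8%) in RbΔL/ΔL, and both differences included 0. The density of such peaks was then 0.824 times that of the rest of the autosomes in Rb+/+ (interval from 0.556 to 1.18) and 0.966 times it in RbΔL/ΔL (interval 0.643 to 1.399). Set against the next 5 Mb alone, where there were 15 and 13 such peaks on the same 18 chromosomes, it was 2.07 times as high in Rb+/+ (interval from 1.08 to 4.12) and 2.23 times as high in RbΔL/ΔL (interval 1.13 to 4.68).

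The highest-scoring site outside the chromosome 9 group lay on chromosome 10 and was shared. It spanned 5959083 to 5959897 in Rb+/+ (score 697.86, rank 41 of its list) and 5959298 to 5959720 in RbΔL/ΔL (score 763.46, rank 17). On chromosome 19, a pair of strong sites lay 1.13 and 1.16 Mb from the 3 Mb position. The first spanned 4125508 to 4126214 in Rb+/+ (score 525.53) and 4125672 to 4125949 in RbΔL/ΔL (score 464.72). The second spanned 4163084 to 4163696 in Rb+/+ (score 691.26) and 4163154 to 4163551 in RbΔL/ΔL (score 522.38). In all 3 sites the RbΔL/ΔL peak lay inside the wider Rb+/+ peak.

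The other shared sites among the 8 highest-scoring peaks of either list, leaving out the chromosome 9 group, lay on chromosomes 1, 8, 11, 13, 15 and 19. On chromosome 13 a site at 3536892 to 3537533 in Rb+/+ (score 475.82) had its partner at 3537083 to 3537347 in RbΔL/ΔL (score 464.72). On chromosome 8 the site at 3516695 to 3517131 in Rb+/+ (score 232.85, rank 363) ranked much higher in the other list, at 3516584 to 3517047 (score 462.2, rank 56). Also on this chromosome, the site at 4275780 to 4276068 in Rb+/+ (score 327.44, rank 219) ranked lower in RbΔL/ΔL, at 4275812 to 4276261 (score 144.36, rank 422). These chromosome 8 sites therefore stood in opposite orders in the lists. On chromosome 1 the Rb+/+ peak at 7078481 to 7079332 (score 399.2) met a RbΔL/ΔL peak at 7078628 to 7079130 (score 203.61). On chromosome 15 the Rb+/+ peak at 6658121 to 6658707 (score 374.91) met 6657945 to 6658524 (score 274.09). Chromosome 11 held a site at 3996397 to 3997315 in Rb+/+ (score 344.88) with a partner at 3996702 to 3997042 (score 228.46), and one close to the 3 Mb position at 3166186 to 3166686 (score 231.47) with a partner at 3166199 to 3166673 (score 287.08). On chromosome 19 the site at 6276175 to 6276910 in Rb+/+ (score 315.47) met 6276511 to 6277035 (score 265.77). Across all 51 pairs the scores of both lists were correlated over sites (Spearman's rho 0.81, beside 0.75 over 980 pairs elsewhere); the sites share their libraries, and the values are descriptive.

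Some well-scored peaks overlapped no peak in the list of the other genotype. Of the peaks with a score of at least 100, 19 in Rb+/+ and 17 in RbΔL/ΔL were unmatched, on 9 and 10 chromosomes. These were 37.3% and 34.7% of such peaks here, near the 31.8% of all autosomal Rb+/+ and 29.3% of all autosomal RbΔL/ΔL peaks of that score. Of these unmatched peaks, 1 in Rb+/+ and 6 in RbΔL/ΔL lay within 10 kb of a peak of the other list, the nearest at 424 and 131 bp. The highest in Rb+/+ lay on chromosome 13 at 3610214 to 3610851 (score 253.09), 52.1 kb from the nearest RbΔL/ΔL peak. In this stretch it was the only unmatched peak of either list with a score of 200 or more. Next, with a score of 189.67, came a chromosome 17 peak at 6079660 to 6080067, 26.5 kb from the nearest RbΔL/ΔL peak. A chromosome 7 peak at 3581006 to 3581897 (score 189.03) had a RbΔL/ΔL peak 14.99 kb away. The remaining ones of the 5 highest were the chromosome 19 peak at 3850838 to 3852026 (score 184.31), 54.995 kb away, and the chromosome 11 peak at 6315675 to 6316339 (score 170.81), 48.8 kb away. In RbΔL/ΔL, outside the chromosome 9 group, the highest lay on chromosome 19 at 5724238 to 5724930 (score 150.83), 6.67 kb from a Rb+/+ peak. It was followed by a chromosome 4 peak at 7126372 to 7126580 with a score of 126.88, 209 kb from the nearest Rb+/+ peak. The chromosome 11 peak at 6191882 to 6192362 scored 125.78 and lay 43.5 kb away. Peaks on chromosome 11 at 3435364 to 3435931 and on chromosome 13 at 3892679 to 3893032 scored 121.8 each and lay 97.5 and 225 kb away. An unmatched peak may have had signal in the other library that did not reach the caller's threshold, and such signal was not seen here.

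Unmatched peaks lay nearer to the other list on chromosome 19 than on the other chromosomes of this stretch. The median distance from an unmatched Rb+/+ peak to the nearest RbΔL/ΔL peak was 26.6 kb on chromosome 19 and 90.8 kb on the other chromosomes of this stretch, beside 78.9 kb in the rest of the autosomes. For unmatched RbΔL/ΔL peaks these distances were 11.8, 78.5 and 67.1 kb. Within 10 kb of the other list lay 16 of 63 unmatched Rb+/+ peaks on chromosome 19 (25.4%, interval 15.3 to 37.9%) and 15 of 35 unmatched RbΔL/ΔL peaks (42.9%, interval 26.3 to 60.6%). On the other chromosomes of this stretch it was 19 of 184 (10.3%, interval 6.33 to 15.7%) and 19 of 168 (11.3%, interval 6.95 to 17.1%). The denser a list is, the nearer its closest peak lies, and no correction was made for that.

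Most peaks had the usual width of these lists, and the widest lay at the start of chromosome 9. The median width was 436.5 bp in Rb+/+ (quartiles 361 and 478, range 177 to 1866), beside 428 bp in the rest of the autosomes. In RbΔL/ΔL it was 416.5 bp (quartiles 348 and 469, range 190 to 1870), beside 413 bp. In both lists the order-statistic interval of the median, 419 to 445 bp and 404 to 428 bp, included the value of the rest. On chromosome 9 below 3.1 Mb the Rb+/+ median was 720 bp and the RbΔL/ΔL median 775.5 bp. Peaks over 1 kb numbered 4 of 298 in Rb+/+, beside 0.301% of all autosomal Rb+/+ peaks, and 3 of 254 in RbΔL/ΔL, beside 0.175%. Of these, 2 Rb+/+ peaks and all 3 RbΔL/ΔL peaks were in the chromosome 9 group. The other Rb+/+ ones were the unmatched chromosome 19 peak at 3850838 (1189 bp) and the chromosome 12 peak at 4082042 to 4083078 (1037 bp, score 287.33), whose partner at 4082263 to 4083015 was 753 bp wide (score 160.18). Outside the chromosome 9 group, the next in width were the chromosome 11 peak at 3996397 (919 bp), the chromosome 7 peak at 3581006 (892 bp) and the chromosome 1 peak at 7078481 (852 bp) in Rb+/+. In RbΔL/ΔL the widest outside the chromosome 9 group lay on chromosome 19 at 5809502 to 5810322 (821 bp), chromosome 4 at 7510683 to 7511471 (789 bp), chromosome 19 at 4811716 to 4812500 (785 bp) and, after the chromosome 12 peak, chromosome 19 at 4756143 to 4756846 (704 bp).

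At shared sites the Rb+/+ peak was usually the wider one, here as in the rest of the autosomes. Outside the chromosome 9 group it was wider in 32 of 43 pairs (74.4%, interval 58.8 to 86.5%), with median widths of 501 and 423 bp, beside 68.9% of 980 pairs elsewhere. The difference of 5.54 points (interval -9.38 to 16.6) included 0. The RbΔL/ΔL peak lay wholly inside the Rb+/+ peak in 16 of the 43 pairs (37.2%), beside 35.4% elsewhere. In the chromosome 9 group the Rb+/+ peak was wider in 3 of 8 pairs, with medians of 751 and 749.5 bp.

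Peaks stood close together mainly on chromosome 19 and at the start of chromosome 9. A peak of the same list within 10 kb was found for 63 of 298 Rb+/+ peaks (21.1%, interval 16.6 to 26.2%), beside 17.3% of all autosomal Rb+/+ peaks. In RbΔL/ΔL it was 46 of 254 (18.1%, interval 13.6 to 23.4%), beside 12.2% of all autosomal RbΔL/ΔL peaks. On chromosome 19 the shares were 32.9% in Rb+/+ (25 of 76) and 31.2% in RbΔL/ΔL (15 of 48). They were above those in the rest of the autosomes by 15.8 points (interval 6.21 to 27.0) and 19.3 points (interval 7.97 to 33.4). Chromosome 19 also held more peaks per Mb here, 15.2 in Rb+/+ and 9.60 in RbΔL/ΔL, against 3.31 and 2.60 in the rest of the autosomes. A denser stretch has closer neighbours, and no correction was made for that. Leaving out chromosome 19 and the chromosome 9 group, 29 of 213 (13.6%) and 21 of 196 (10.7%) had such a neighbour, and the differences of -3.52 points (interval -7.57 to 1.80) and -1.23 points (interval -4.92 to 3.94) included 0. Peaks that cluster come at least in pairs and are not counted independently, so the true uncertainty is larger than these intervals.

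Runs of 3 or more peaks with steps of at most 10 kb were few, 6 in Rb+/+ and 5 in RbΔL/ΔL. The chromosome 9 group formed 2 of them in each list. The first ran from 2999948 to 3011918 in Rb+/+ (5 peaks) and 2999945 to 3011920 in RbΔL/ΔL (4 peaks). The second ran from 3023091 to 3036474 (4 peaks) and 3021996 to 3036429 (6 peaks). Away from chromosome 9 no run of one list overlapped a run of the other. In Rb+/+ they were chromosome 11 at 3271065 to 3275213 (3 peaks) and chromosome 19 at 5031618 to 5059535 (4 peaks), 5804425 to 5817994 (4 peaks) and 6118264 to 6129519 (3 peaks). In RbΔL/ΔL they were chromosome 2 at 4314234 to 4325960 (3 peaks) and chromosome 19 at 4992925 to 5003951 (3 peaks) and 5714201 to 5731948 (4 peaks). Of the 14 Rb+/+ peaks in these runs 1 overlapped a RbΔL/ΔL peak, and of the 10 RbΔL/ΔL peaks 2 overlapped a Rb+/+ peak, small counts near the 13.2% and 16.7% of all autosomal peaks. The first of the chromosome 19 runs in Rb+/+ had 3 RbΔL/ΔL peaks within its span and the second had 1, and each of the chromosome 19 runs in RbΔL/ΔL had 1 Rb+/+ peak within its span. The highest-scoring was the shared peak at 5041134 to 5041471 on chromosome 19 (score 327.2 in Rb+/+), whose partner at 5041182 to 5041478 had a score of 204.99.

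The opposite ends of the same chromosomes gave a reference for peaks at chromosome ends. In the last 5 Mb of the autosomes there were 394 Rb+/+ peaks, of which 52 (13.2%, interval 10.02 to 16.9%) overlapped the other list, and 299 RbΔL/ΔL peaks, of which 52 did (17.4%, interval 13.3 to 22.2%). A score of at least 100 was reached by 12.9% and 13.7% of them. The intervals of the shares of overlap and of this score overlapped those of the centromeric ends. Another peak of the same list within 10 kb was found for 23.4% of the Rb+/+ peaks at the distal ends (interval 19.3 to 27.8%), beside 21.1% at the centromeric ends. In RbΔL/ΔL it was 10.03% (interval 6.87 to 14.01%), beside 18.1% at the centromeric ends. Without chromosome 19 and the chromosome 9 group, the shares at the centromeric ends were 13.6% in Rb+/+ and 10.7% in RbΔL/ΔL. The distal shares cover all 19 autosomes. No difference between the ends was computed.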

How the data were processed

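ChIP-seq for CAP-D3 was analysed from 1 deposited peak list per ChIP library, called by the authors per sample. Bowtie 1.0, MACS 1.4.2 and the mm9 build are named in the submitters' processing notes. Caller settings, its control, and the handling of duplicate and multiply mapping reads: not given in the sources used here. These choices decide which weak peaks and repeats appear. The deposited values are positions and 1 score per peak from the authors' caller. No header says what the score measures.

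Positions fell within the mm9 chromosome lengths of GenomeInfoDb 1.38.1. The gene table and promoter sequences at hand belong to a later build and were not used. The comparisons used scipy 1.17.1, numpy 2.4.6 and pandas 2.3.3 under Python 3.11.15. Overlap meant at least 1 shared bp, and clustering a peak of the same list within 10 kb between edges. Densities used full lengths from 3 Mb on, uncorrected for gaps. Counts have exact Poisson intervals, shares Clopper-Pearson intervals, density ratios exact conditional intervals and medians order-statistic intervals. Simulated lists with known partners and neighbours were recovered by the same code. No test was run. Named were the chromosome 9 peaks below 3.1 Mb, the 8 highest-scoring, 5 highest-scoring unmatched and 5 widest others of each list, the one nearest to 3 Mb on each chromosome, and runs of 3 or more. Peaks and rules were chosen with earlier results of these data known.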

Additional observations from a re-analysis of the deposited data

How the results depend on the processing

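Of 86 alternative values for 13 results, 56 stayed close (numbers of peaks within 1.5 times, other values within the 95% interval of the reported value), and 30 moved. Leaving out chromosome 19 was chosen after seeing the data. It gave a density ratio of 0.748 in Rb+/+ and 0.884 in RbΔL/ΔL. Leaving out chromosome 9 below 3.1 Mb moved none of these results out of their intervals. Some differences from the rest of the autosomes, which were not among the 13 results, did come to include 0. For shared Rb+/+ peaks the difference became 1.86 points (interval -1.86 to 6.49). For Rb+/+ peaks with a score of at least 100 it became 3.29 points (interval -0.55 to 8.01). For clustered RbΔL/ΔL peaks it became 2.81 points (interval -1.18 to 7.87). For RbΔL/ΔL peaks of that score it was 4.67 points, and the interval still excluded 0. Restricting both lists to scores of 100 or more, 51 and 49 peaks remained, overlap was 52.9% and 55.1%, median widths were 527 and 448 bp, clustered Rb+/+ peaks 9.80%, and the density ratios 1.29 and 1.53 (interval 1.12 to 2.05 in RbΔL/ΔL). With the limit at 5 Mb there were 134 and 117 peaks, overlap was 24.6% and 28.2%, the Rb+/+ median width 446 bp, clustered RbΔL/ΔL peaks 23.9%, and the density ratios 1.07 and 1.19. With the limit at 13 Mb there were 510 and 448 peaks, 14.5% of RbΔL/ΔL peaks reached a score of 100, and the density ratios were 0.800 (interval 0.730 to 0.876) and 0.899 (interval 0.815 to 0.990), both below 1, whereas the reported RbΔL/ΔL ratio was 1.03 with an interval that included 1. The 6000 highest-scoring peaks of each list gave a Rb+/+ median width of 408 bp and 23.2% of Rb+/+ peaks at 100 or more. Clustered shares were 10.4% and 5.12% at a distance of 1 kb, and 67.1% and 59.8% at 100 kb. No paired analysis was possible because there is 1 library of each genotype, which also means that none could be left out. Since the read depth is unknown, weak peaks carry the least weight.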

Other observations

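The same stretch of the X chromosome, which was not among the autosomal peaks described, held 7 Rb+/+ and 6 RbΔL/ΔL peaks starting below 8 Mb. The first started at 5190861 in Rb+/+ and at 5740112 in RbΔL/ΔL. The sites shared by both lists were 7525038 to 7525369 (score 116.52) with 7525129 to 7525378 (score 126.88), and 7651459 to 7651928 (score 241.95) with 7651587 to 7651891 (score 212.63). These pairs also held the highest scores of the stretch on X in both lists. The other 5 Rb+/+ peaks had scores of 54.77 to 63.03 and lay 122 to 549 kb from the nearest RbΔL/ΔL peak. The other 4 RbΔL/ΔL peaks had scores of 52.4 to 56.39 and lay 33.3 to 249 kb from the nearest Rb+/+ peak. The sex of the cells was not determined.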
